A study of Mus musculus with 18 samples.

Results

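Runx2, Sp7, Dlx3, Dlx5, Dlx6, Msx1 and Msx2 encode DNA-binding proteins that set the osteoblast programme. They were picked by name, with earlier results of these data known. These are 7 genes of the 43346 in the expression table, and all 7 passed the filter on low values. They were followed in MC3T3-E1 subclone 4 cells, a C57BL/6 mouse line of pre-osteoblasts from the skull vault, taken at passage 9 and kept for 3 days in osteogenic medium with ascorbic acid and β-glycerol phosphate. One arm had 2.5 µM EPZ6438, a small molecule that inhibits the histone methyltransferase EZH2, and the other had 0.25% DMSO as vehicle. The labels do not say if DMSO was present in the EPZ6438 arm too. RNA came from 3 samples of each arm, and the marks H3K27me3 and H3K4me3 came from 1 merged peak list per mark and arm. Both arms share the medium, the day and the line, a single subclone, so other lines, primary osteoblasts and undifferentiated culture were not covered.

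Runx2 is a runt-domain protein that pairs with Cbfb and without which no osteoblasts form, and Sp7, also called osterix, is a zinc-finger protein needed after Runx2 for the same step. The Dlx and Msx proteins share a homeodomain, are induced by bone morphogenetic proteins (BMPs) in the skull and jaw, and compete for similar sites, where Dlx proteins mostly activate and Msx proteins mostly repress. EZH2 writes H3K27me3, a mark of silenced developmental genes, while H3K4me3 marks active or poised promoters. The comparisons address which of these regulators differed in RNA under EZH2 inhibition and what either mark did around them.

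Reads in genes numbered 20023137 to 24140050 in the EPZ6438 libraries and 18807156 to 25365513 in the DMSO libraries. Values are RPKM (reads scaled to gene length in kb and to 1000000 reads in genes), and changes are log2 differences of RPKM + 0.1, EPZ6438 minus DMSO, tested with limma and adjusted by the Benjamini-Hochberg method over 14213 genes. No label says that the 3 samples of an arm were grown apart, so a p-value speaks for the spread among these libraries alone, which may be technical. In RNA from whole cultures, fewer cells of a type and less RNA per cell cannot be told apart. The 8 osteoblast markers summed to 8014 to 9702 RPKM in EPZ6438 libraries and 5812 to 8151 RPKM in DMSO libraries. These ranges overlapped. Most of each sum was Col1a1, Col1a2 and Sparc. Their means were 2955, 2348 and 2414 RPKM in EPZ6438 and 2169, 2021 and 1829 RPKM in DMSO. The sum thus does not show a rise of the list as a whole. Of the 8 markers 4 rose, 2 fell and 2, Col1a1 and Col1a2, did not pass. Among markers of other cells, Myod1, Myog, Myf5, Acan, Rbfox3, Cd3e, Cdh5 and Kdr were listed at 0 in every library. Others of the same lists were expressed in both arms, with Sox9 of cartilage at 4.89 to 5.32 RPKM in EPZ6438 and 4.72 to 7.05 RPKM in DMSO. Far higher was Acta2 of smooth muscle, at 1518, 1496 and 1517 RPKM in EPZ6438 and 2021, 2126 and 2145 RPKM in DMSO. The 37 genes of the mitochondrial chromosome, which cells use, were also listed at 0, so a listed 0 here need not mean that a gene was silent. Ezh2 itself had 15.4, 14.1 and 15.1 RPKM in EPZ6438 libraries and 16.2, 14.3 and 12.6 RPKM in DMSO libraries, and the arms overlapped.

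RefSeq promoter windows (build GRCm38.p6, from 250 bases before to 50 after a start site) were at hand for 3 of the 7 genes, Runx2, Msx1 and Msx2. They are shown because the 3 genes differ in their promoter letters as well as in their marks, together with the window of the osteocalcin gene Bglap, a textbook target of Runx2. Capitals mark matches to any of 3 motifs, each searched on both strands. A Runx core was ACCACA. A GC box, which Sp proteins bind, was GGGCGG. A homeodomain core was TAATTA or, in its other form, TAATTG, and no motif overlaps another in these windows.
Runx2 (chr17:44814578-44814877, minus strand): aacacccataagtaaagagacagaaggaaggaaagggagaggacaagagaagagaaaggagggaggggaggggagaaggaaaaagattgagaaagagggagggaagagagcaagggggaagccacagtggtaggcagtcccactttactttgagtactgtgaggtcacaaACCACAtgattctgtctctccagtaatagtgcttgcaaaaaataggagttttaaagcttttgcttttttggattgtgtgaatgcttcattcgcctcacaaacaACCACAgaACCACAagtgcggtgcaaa
Msx1 (chr5:37824536-37824835, minus strand): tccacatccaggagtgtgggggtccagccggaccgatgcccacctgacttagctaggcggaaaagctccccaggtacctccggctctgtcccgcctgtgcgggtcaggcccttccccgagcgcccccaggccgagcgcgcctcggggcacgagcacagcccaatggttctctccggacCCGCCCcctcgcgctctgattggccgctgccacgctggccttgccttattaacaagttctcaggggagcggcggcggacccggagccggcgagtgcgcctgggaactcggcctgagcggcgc
Msx2 (chr13:53472731-53473030, minus strand): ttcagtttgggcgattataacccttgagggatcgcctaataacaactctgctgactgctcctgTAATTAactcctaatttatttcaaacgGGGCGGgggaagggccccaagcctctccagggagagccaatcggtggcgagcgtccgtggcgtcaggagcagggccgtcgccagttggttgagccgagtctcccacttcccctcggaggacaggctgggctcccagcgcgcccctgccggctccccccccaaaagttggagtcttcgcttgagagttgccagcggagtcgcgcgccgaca
Bglap (chr3:88384417-88384716, minus strand): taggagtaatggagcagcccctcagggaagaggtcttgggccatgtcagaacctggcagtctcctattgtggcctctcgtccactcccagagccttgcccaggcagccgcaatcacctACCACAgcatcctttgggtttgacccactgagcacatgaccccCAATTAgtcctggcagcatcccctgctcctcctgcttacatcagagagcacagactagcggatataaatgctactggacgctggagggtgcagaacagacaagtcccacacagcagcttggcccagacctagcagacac

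The Runx2 window held 3 Runx cores, starting at -80, +24 and +32 from the start site, which counts as +1 with no position 0. At least 1 core was found in 16.8% of 32851 windows of the same length and at least 3 in 0.183%. It held only 2 CpG dinucleotides, against a median of 7 over all windows, and neither a GC box nor a homeodomain core. The Msx windows were rich in CpG, with 29 in Msx1 and 22 in Msx2. Msx1 had a GC box at -72, read as CCGCCC from this strand, and Msx2 had a homeodomain core at -187 and a GC box at -160. A GC box was present in 35.7% and a homeodomain core in 12.4% of all windows, so none of these matches is rare. Bglap carried a Runx core at -132 and a homeodomain core at -89, read as CAATTA. Of 22 target genes listed for Runx2 and Sp7, 17 had a window and 5 of these held a Runx core, so the core is missing from most of those windows.

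The downstream pair of Runx2 cores, with starts 8 bases apart on the same strand, was found in 7 of the 32851 windows (0.0213%). Runx1, Runx2 and Runx3, the whole runt-domain family, were among the 7, and the others were Olfr24, Gm12236, Gm15462 and Gm16225. The 40 bases around the pair are shown for the family, with the cores in capitals.
Runx1 (chr16:92826025-92826064, minus strand): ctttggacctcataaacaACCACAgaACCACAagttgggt
Runx2 (chr17:44814578-44814617, minus strand): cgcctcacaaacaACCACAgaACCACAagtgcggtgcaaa
Runx3 (chr4:135120498-135120537, plus strand): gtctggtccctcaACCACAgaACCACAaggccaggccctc
The pair lay after the start site in Runx1 and Runx2, at +29 and +24, and before it in Runx3, at -134. A match is a description of letters and not a binding site.

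3 of the 7 regulators rose under EPZ6438 and none fell. Runx2 and Sp7, the pair needed to make an osteoblast, and the homeodomain gene Dlx3 passed the test, while Dlx5, Dlx6, Msx1 and Msx2 did not. Over all genes tested, 7.04% passed, 3.8% as higher and 3.24% as lower in EPZ6438. The median change of the 7 genes was 0.59, against -0.03 over all genes tested.

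Sp7 (chr15:102356609-102366325) had 99.1, 105 and 101 RPKM in the EPZ6438 libraries, against 52.6, 53.8 and 55.8 RPKM in the DMSO libraries. It was the most abundant of the 7 in both arms, and every EPZ6438 library stood well above every DMSO library. The log2 change was 0.91 (SE 0.07, limma adjusted p = 0.000704), with means of 102 ± 3.25 and 54.1 ± 1.62 RPKM (SD, n = 3 each) in EPZ6438 and DMSO. Its level exceeded that of 96.6% of tested genes in EPZ6438 and 92.6% in DMSO.

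Runx2 (chr17:44495987-44814797) had 48.0, 42.3 and 47.0 RPKM in the EPZ6438 libraries, against 31.9, 30.6 and 28.7 RPKM in the DMSO libraries. The arms did not overlap, with EPZ6438 replicate 2 the lowest of its arm and still above all DMSO libraries. The change was 0.59 (SE 0.08, limma adjusted p = 0.00813). It kept its direction but missed the threshold when 1 library was left out, at an adjusted p of 0.0620 without EPZ6438 replicate 3 and 0.0543 without DMSO replicate 2. Its level exceeded that of 91.1% of tested genes in EPZ6438 and 85.2% in DMSO.

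Dlx3 (chr11:95120119-95125296), a homeodomain gene whose mutation in humans affects hair, teeth and bone, had 3.10, 2.87 and 3.12 RPKM in the EPZ6438 libraries, against 0.816, 0.828 and 0.831 RPKM in the DMSO libraries. These were 163 to 181 reads in EPZ6438 and 40 to 55 reads in DMSO. The libraries of each arm lay close together and the arms were far apart. Dlx3 had the largest change of the 7, 1.76 (SE 0.12, limma adjusted p = 0.000640), and 0.521% of tested genes had a higher one. With a pseudocount of 1 RPKM the change was 1.14 and still passed, because a larger pseudocount shrinks the change of a low gene.

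Dlx5 (chr6:6877805-6882085), which switches on Sp7 in response to BMPs, had 16.5, 23.9 and 22.6 RPKM in the EPZ6438 libraries, against 9.82, 11.7 and 16.4 RPKM in the DMSO libraries. The arms did not overlap, but the lowest EPZ6438 library and the highest DMSO library nearly met, and in RPKM the SD of each arm was the widest of the 7 (3.96 in EPZ6438 and 3.36 in DMSO). The change of 0.74 had an SE of 0.21 and did not pass (limma adjusted p = 0.0919). Without DMSO replicate 3 it was 0.95 and passed (adjusted p = 0.0261).

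Dlx6 (chr6:6863334-6868568), the neighbour and paralogue of Dlx5, had 2.60, 2.28 and 1.93 RPKM in the EPZ6438 libraries, against 1.97, 1.67 and 1.99 RPKM in the DMSO libraries. The arms overlapped, and the change was 0.26 (SE 0.16, limma adjusted p = 0.416). The antisense gene Dlx6os1 covers Dlx6 over its whole length, at 0.611 to 0.802 RPKM in EPZ6438 and 0.667 to 1.11 RPKM in DMSO. Since the strand setting of the counting is not given, reads of the 2 genes may not have been told apart.

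Msx1 (chr5:37820485-37824583) had 1.69, 1.70 and 2.03 RPKM in the EPZ6438 libraries, against 1.44, 1.42 and 1.04 RPKM in the DMSO libraries. The arms did not overlap, but the change of 0.45 (SE 0.17) did not pass (limma adjusted p = 0.196). Msx2 (chr13:53466884-53473074), whose protein opposes Dlx5 at the osteocalcin promoter, had 1.56, 1.67 and 1.78 RPKM in the EPZ6438 libraries, against 1.75, 2.25 and 1.41 RPKM in the DMSO libraries. The DMSO libraries spanned the whole EPZ6438 range, and the change was -0.08 (SE 0.19, limma adjusted p = 0.851). In all, 5 of the 7 genes had every EPZ6438 library above every DMSO library, an order seen in 12% of tested genes.

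**Figure D1:**
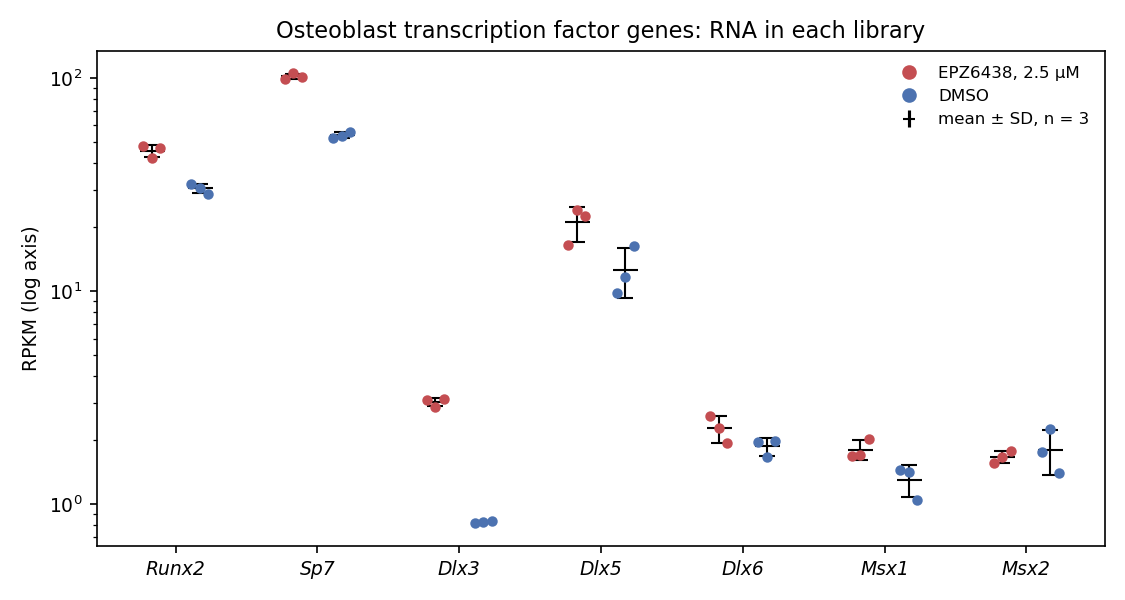
RNA of the 7 regulators in each library, as RPKM on a log axis, EPZ6438 in red left of DMSO in blue, with the mean ± SD of 3 libraries in black. Dlx3 sits near 3 RPKM in EPZ6438 and below 1 RPKM in DMSO, while the Msx2 arms overlap.

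**Figure D2:**
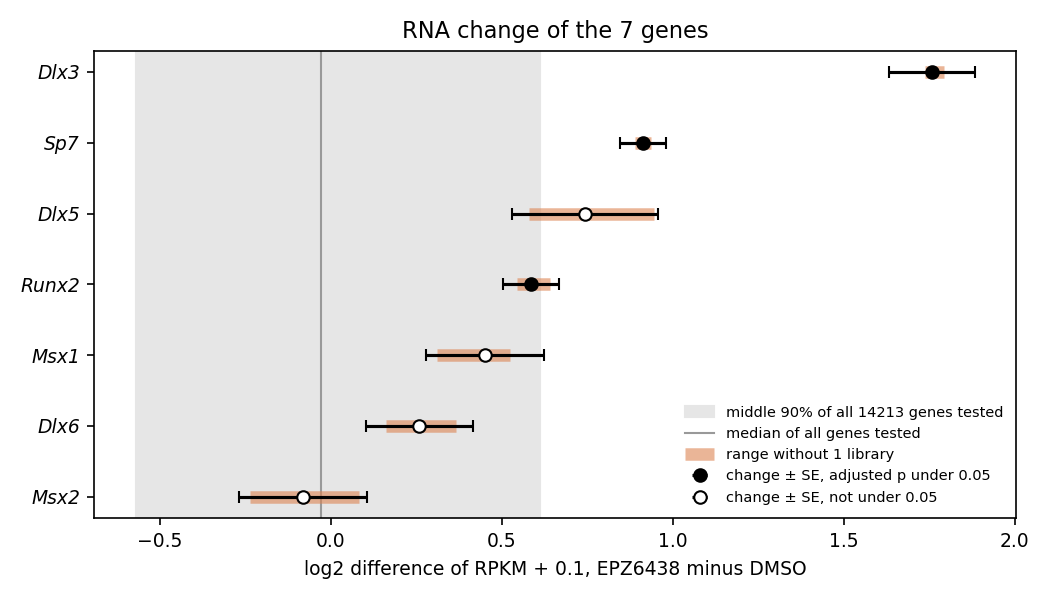
Log2 change of each regulator, EPZ6438 minus DMSO, with its SE, the range when any 1 library is left out (orange) and the middle 90% of all 14213 genes tested (grey). Filled points passed at an adjusted p under 0.05, and Dlx3, Sp7 and Dlx5 lie to the right of the grey band.

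RPKM is scaled to gene length, so the levels of the 7 can be set in order. In EPZ6438 the order was Sp7, Runx2, Dlx5, Dlx3, Dlx6, Msx1 and Msx2, where the libraries of Dlx6 and Msx1 overlapped and so did those of Msx1 and Msx2. In DMSO it was Sp7, Runx2, Dlx5, Dlx6, Msx2, Msx1 and Dlx3, where those of Dlx6 and Msx2 overlapped and so did those of Msx2 and Msx1. Dlx3 thus stood above Dlx6, Msx1 and Msx2 in EPZ6438 and below all of them in DMSO, at levels above 29.1% and 12.9% of tested genes.

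Ratios between members within a library do not depend on how that library was scaled, and 3 were compared by a two-sided exact permutation test, which cannot go below 0.1 with 3 samples against 3. Sp7 over Runx2 was 2.07, 2.50 and 2.15 in EPZ6438 libraries and 1.65, 1.75 and 1.94 in DMSO libraries. The ratio was higher in every EPZ6438 library (log2 difference 0.33, exact permutation p = 0.1, 0.15 adjusted over the 3 ratios). Msx2 over Msx1 was 0.927, 0.982 and 0.877 in EPZ6438 libraries and 1.21, 1.58 and 1.35 in DMSO libraries. In RPKM, Msx1 was the higher in each EPZ6438 library and Msx2 in each DMSO library. The log2 difference was -0.57 (exact permutation p = 0.1, adjusted 0.15). The order in EPZ6438 rests on near-equal reads, 110, 127 and 126 for Msx1 against 108, 132 and 117 for Msx2. In DMSO the reads were 84, 98 and 82 for Msx1 against 108, 164 and 117 for Msx2. Dlx6 over Dlx5 was 0.157, 0.0954 and 0.0855 in EPZ6438 and 0.201, 0.142 and 0.122 in DMSO, with arms that overlapped (log2 difference -0.48, exact permutation p = 0.3).

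The genes whose pattern over the 6 libraries was most like that of a member were found by the root mean square difference of log2(RPKM + 0.1) after centring each gene, among 12909 genes of at least 1 CPM. For Sp7 they were Aqp1, a water channel, at 0.0212, and Tnc, the matrix protein tenascin C, at 0.0314. For Runx2 they were Mgat5, a glycosyltransferase, at 0.0266 and Sertad4 at 0.0347. The nearest to Dlx5 were Hip1r at 0.0658 and Trpv4, a calcium channel, at 0.0669, and the nearest to Msx2 were Rel at 0.0414 and Hhex at 0.0575. These are the closest of many genes in 6 libraries and carry no test.

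Of 22 genes listed as targets of Runx2 and Sp7, 20 were tested. Of these 10 rose, 1 fell and 9 did not pass, where 3.8% of all genes tested rose and 3.24% fell. The 10 include Bglap, Bglap2 and Bglap3, neighbouring osteocalcin copies whose reads may have been split, so they are not separate targets. The median change of the 20 genes was 0.59, against -0.03 over all genes tested. This list and those below were chosen with earlier results of these data known, so the counts are descriptions and no independent support. Phospho1, a phosphatase that starts mineral formation, had 153, 165 and 174 RPKM in EPZ6438 libraries and 24.5, 28.4 and 31.1 RPKM in DMSO libraries (change 2.55, limma adjusted p = 8.15e-05). Ifitm5, a membrane protein of osteoblasts, had 55.2, 73.0 and 66.0 RPKM in EPZ6438 and 6.07, 6.22 and 8.34 RPKM in DMSO (change 3.22). In both genes the arms were far apart. The sphingomyelinase gene Smpd3 averaged 82.6 ± 6.71 RPKM in EPZ6438 and 11.8 ± 2.56 RPKM in DMSO (SD, n = 3 each), and Tnfrsf11b, which encodes osteoprotegerin, averaged 147 ± 9.28 and 39.7 ± 5.03 RPKM. The fitted log2 changes of these 4 genes, 1.89 to 3.22, were larger than those of Runx2 and Sp7, a difference that was not tested. The 4 were picked by smallest adjusted p, which favours large changes. The median of the tested targets, 0.59, was near the change of Runx2 (0.59) and below that of Sp7 (0.91).

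The bone sialoprotein gene Ibsp (1.61), the alkaline phosphatase gene Alpl (1.14), Bglap (1.50) and Vegfa (0.50) rose as well. Bglap2 and Bglap3 also rose, but the osteocalcin genes are near-identical copies and the counting could have split their reads, so their separate values are uncertain. Spp1, which encodes osteopontin, fell by 0.57 on the log2 scale (limma adjusted p = 0.0316) and lost the call without any 1 of the 3 EPZ6438 libraries or DMSO replicate 2, and with no filter on low values. Mmp13, a collagenase, had 2.36 ± 0.341 RPKM in EPZ6438 and 3.52 ± 0.436 RPKM in DMSO and did not pass (adjusted p = 0.0861). Tnfsf11, which encodes RANKL, was listed at 0 in every library. Postn, a matrix protein gene among the 8 osteoblast markers, had 290 ± 31.6 RPKM in EPZ6438 and 536 ± 103 RPKM in DMSO and fell by 0.87 on the log2 scale (limma adjusted p = 0.0175), a call lost without EPZ6438 replicate 2 or 3 or DMSO replicate 2. The collagen genes Col1a1 (0.51) and Col1a2 (0.23) did not pass. Some markers of other cells moved beside the targets, and others of the same lists did not pass. Of 4 tested cartilage genes Col2a1 and Col9a1 rose (2.66 and 1.55), while Sox9 (-0.15) and Comp (-0.07) did not pass. Of 2 tested neuronal genes Tubb3 rose (2.06) and Map2 (-0.27) did not pass. Des, the 1 skeletal muscle gene tested, rose by 0.88. Of 4 tested smooth muscle genes Acta2 fell by 0.47 and 3 did not pass, with Smtn at 0.45. The Col9a1 change rests on a level near 0 in DMSO and was 3.98 with a pseudocount of 0.01 RPKM. Its reads were 23, 31 and 16 in EPZ6438 and 0, 0 and 2 in DMSO. Col9a1 thus met the filter on low values through the EPZ6438 libraries alone, and its call is no support for a rise of the list. The Des call was lost without any library other than DMSO replicate 3, and the Acta2 call without any 1 of the EPZ6438 libraries or DMSO replicate 2. With no filter on low values both calls were lost (adjusted p = 0.142 for Des and 0.255 for Acta2), and so was that of Des when at least 1 RPKM was asked for (0.0895) or under TMM scaling (0.0505). The cartilage list of 7 genes summed to 83.7 to 113 RPKM in EPZ6438 and 15.3 to 26.2 RPKM in DMSO. Most of this sum was Col2a1 alone, at 77.6 to 107 RPKM in EPZ6438 and 10.3 to 18.4 RPKM in DMSO. The sum thus follows 1 gene and does not show a rise of the list as a whole. The part of these markers of other cells in the result was not tested.

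Of 25 proteins listed as partners or restrainers of Runx2, 24 were tested, and 1 rose and 1 fell, a share near the 7.04% of all genes tested, with a median change of -0.06. Cbfb, which Runx2 needs to bind DNA, had 30.4 ± 3.29 RPKM in EPZ6438 and 31.1 ± 4.03 RPKM in DMSO (SD, n = 3 each). The arms overlapped (change -0.03, limma adjusted p = 0.924). Twist2, which blocks the DNA-binding domain of Runx2, rose at a low level, at 0.445 ± 0.0754 RPKM in EPZ6438 and 0.176 ± 0.0391 RPKM in DMSO (change 0.98, limma adjusted p = 0.0351). The Twist2 call was lost without any library other than DMSO replicate 3 and with no filter on low values (adjusted p = 0.139). The count of falls was 0 without any library other than DMSO replicate 1.

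Among other transcription factors of osteoblasts, 5 of 23 tested (25 listed) rose, against 3.8% of all genes tested, and none fell, with a median of 0.21. It was 3 without EPZ6438 replicate 1, EPZ6438 replicate 2 or DMSO replicate 2, and 2 without EPZ6438 replicate 3. Tcf7, an effector of Wnt signals, had 55.5, 53.3 and 57.1 RPKM in EPZ6438 and 15.4, 14.8 and 14.8 RPKM in DMSO, and the arms were far apart (change 1.87, limma adjusted p = 8.15e-05). Mef2c, a MADS-box factor, averaged 16.7 ± 1.70 RPKM in EPZ6438 and 7.44 ± 1.20 RPKM in DMSO (change 1.17). Creb3l1, a stress-linked activator of collagen genes, rose by 1.11, Lef1, a relative of Tcf7, by 0.86 and the repressor Bhlhe40 by 0.38. Atf4, at 198 ± 3.26 RPKM in EPZ6438 and 171 ± 2.67 RPKM in DMSO, did not pass.

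Of 14 relatives of the 7 genes, 10 were tested and 1, Runx3, rose, against 3.8% of all genes tested, at 10.3 ± 0.507 RPKM in EPZ6438 and 6.97 ± 0.372 RPKM in DMSO (change 0.56, limma adjusted p = 0.0153). That call did not hold when EPZ6438 replicate 1, 2 or 3 was left out (adjusted p = 0.0627, 0.0636 and 0.104), or DMSO replicate 2 (0.0655). Dlx1, Dlx2 and Dlx4 did not pass. Dlx1 had 2.04 ± 0.122 RPKM in EPZ6438 and 2.58 ± 0.135 RPKM in DMSO (change -0.33, adjusted p = 0.185), and Dlx2 had 1.10 ± 0.122 and 1.55 ± 0.420 RPKM (change -0.44, adjusted p = 0.307). Dlx4, which lies beside Dlx3, had 0.160, 0.203 and 0.458 RPKM in EPZ6438 and 0.179, 0.234 and 0.301 RPKM in DMSO, with overlapping arms.

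Upstream, 2 of 17 tested BMP pathway genes (21 listed) rose, against 3.8% of all genes tested, and none fell, though 1 fell when DMSO replicate 3 was left out. Bambi, a decoy receptor that dampens BMP signals, had 3.99, 4.20 and 3.80 RPKM in EPZ6438 and 1.58, 1.14 and 1.27 RPKM in DMSO (change 1.53, limma adjusted p = 0.00198). The ligand gene Bmp4 had 35.8, 41.5 and 40.3 RPKM in EPZ6438 and 22.8, 28.1 and 28.8 RPKM in DMSO (change 0.57, adjusted p = 0.0298). The Bmp4 call was lost without any 1 of the EPZ6438 libraries or DMSO replicate 2, with adjusted p up to 0.138, and with no filter on low values (0.0603). Bmp2 was listed at 0 in every library, and Id1, a direct BMP target, had 1.12 ± 0.378 RPKM in EPZ6438 and 1.90 ± 0.411 RPKM in DMSO and did not pass (adjusted p = 0.191).

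**Figure D3:**
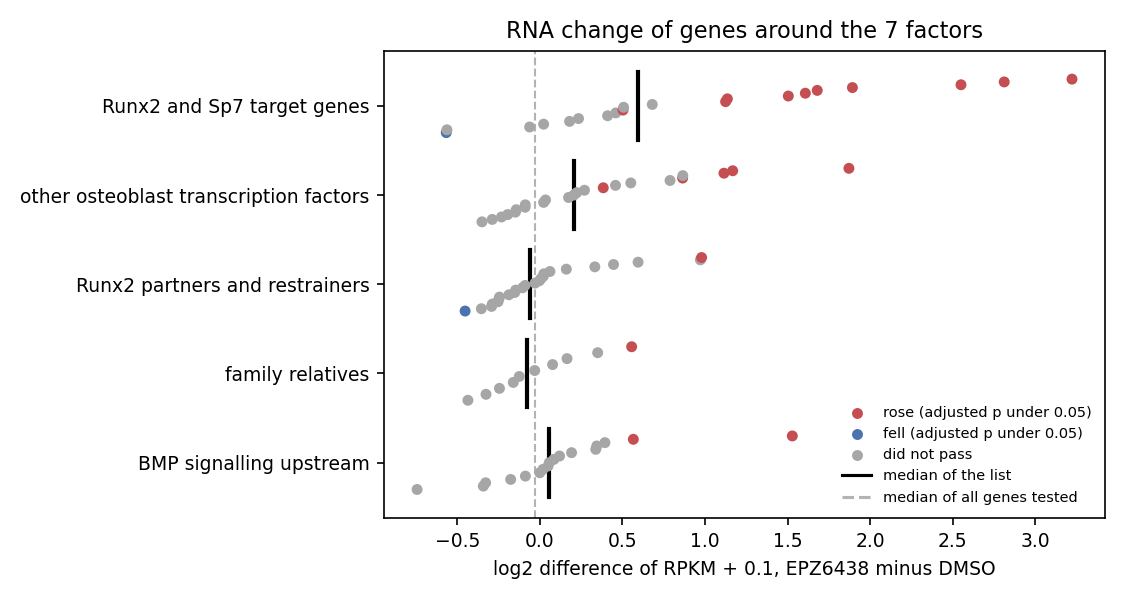
Log2 change, EPZ6438 minus DMSO, of each tested gene of 5 lists around the 7 regulators, with rises in red, falls in blue, genes that did not pass in grey and the list median as a black bar. The target list reaches 3.22 (Ifitm5) with its median at 0.59, while the partner list centres at -0.06.

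H3K27me3 peaks were looked for in each gene plus 10 kb, and the count of members with one depended on this flank. Peaks carry no height and each list has no replicate, so positions and widths are descriptions without a test and the depth behind them is unknown. Within each gene plus 10 kb, 0 of 7 genes had an H3K27me3 peak in EPZ6438 and 3 of 7 in DMSO, against 12% and 56.9% of tested genes. No member had a peak inside its body in either arm, and the share of all genes for which this holds was not computed. In DMSO, Msx1 had peaks of 1119 and 890 bp, 8498 bp before its start coordinate and 5144 bp beyond its end coordinate. Msx2 had peaks of 422 and 330 bp, 9148 and 7315 bp before its start coordinate, and Dlx3 had peaks of 168 and 255 bp, 4747 bp before and 9373 bp beyond. None of these 6 peaks was overlapped by an EPZ6438 peak. All 3 genes were thus covered less than 0.5 times as far in EPZ6438, as were 96.9% of tested genes with a DMSO peak, and 79.2% had none left, so this is the background of the whole list.

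Runx2, Sp7, Dlx5 and Dlx6 had no H3K27me3 peak in the window in either arm, as did 43% of tested genes. The nearest peak to Runx2 was 298103 bp away in EPZ6438 and 15600 bp in DMSO, and to Sp7 315222 bp in EPZ6438 and 30346 bp in DMSO. For Dlx5 the distances were 51755 bp in EPZ6438 and 10301 bp in DMSO, just outside the window. Of the genes that rose, Dlx3 thus had DMSO peaks within 10 kb and Runx2 and Sp7 had none, while Msx1 and Msx2 had such peaks and did not pass the RNA test. This contrast depends on the setting. With peaks of at least 400 bp Dlx3 had 0 bases covered in DMSO, and with 20 kb to each side Runx2 had 660.

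H3K4me3 lay over Runx2, Sp7, Dlx5 and Dlx6 in both arms. A peak lay in the gene plus 10 kb for 6 of 7 genes in EPZ6438 and 4 of 7 in DMSO, against 77.1% and 73.5% of tested genes. Runx2 had 7269 bases under 7 peaks in EPZ6438 and 2958 bases under 9 peaks in DMSO, a ratio of 2.46, above that of 75.4% of tested genes with peaks in both arms. Sp7 had 3515 bases in EPZ6438 and 2290 in DMSO (1.53), Dlx5 had 2037 and 1225 (1.66), and Dlx6 had 907 and 321 (2.83). All 4 lay above 1, but the median over those genes was 1.63, with quartiles of 1.14 and 2.43, and the EPZ6438 list holds fewer and wider peaks (16216 of median 401 bp, against 40113 of median 212 bp in DMSO). Whether the lists were called at like depth is not given, so wider peaks at members cannot be told apart from wider peaks everywhere.

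Of the 4 genes with a DMSO peak, Runx2 and Dlx6 were covered over 2 times as far in EPZ6438, against 32.3% of tested genes with one. None of the 4 was covered less than 0.5 times as far (13.7%) or had lost all peaks (10.5%). Msx1 and Msx2 had an H3K4me3 peak in EPZ6438 and none in DMSO, as did 42.6% of tested genes with none in DMSO. The Msx1 peak was 237 bp wide and lay 638 bp from the RefSeq start site, outside the window printed for it. Msx2 had 295 and 241 bp on its flanks and nothing in its body. Dlx3, with the largest RNA change, had no H3K4me3 peak in either arm, as did 15.2% of tested genes, and the nearest was 43140 bp away in EPZ6438 and 20660 bp in DMSO. No member had overlapping peaks of both marks in either arm, against 0.267% of tested genes in EPZ6438 and 18.5% in DMSO.

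**Figure D4:**
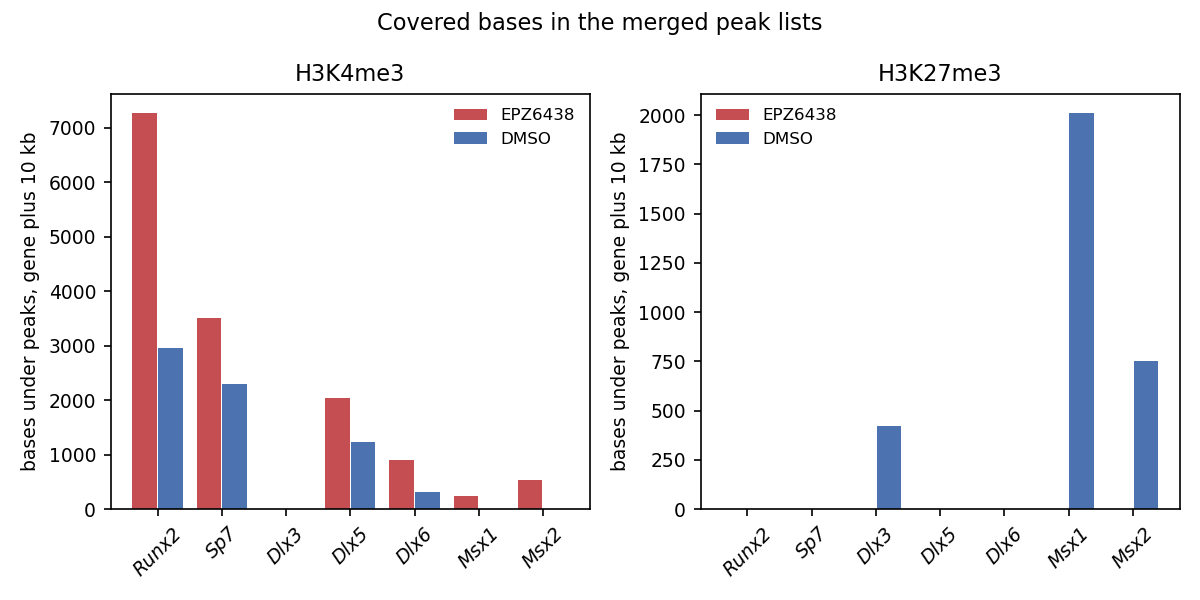
Bases under H3K4me3 peaks (left) and H3K27me3 peaks (right) in each gene plus 10 kb, EPZ6438 in red left of DMSO in blue, from 1 merged list per mark and arm. H3K4me3 reaches 7269 bases at Runx2 in EPZ6438, and H3K27me3 appears in DMSO alone, at Dlx3, Msx1 and Msx2.

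At Runx2, H3K4me3 formed a block deep inside the gene and another at its high-coordinate end, where the RefSeq start site of this minus-strand gene lies. The inner EPZ6438 peak, chr17:44733420-44736758, was 3339 bp wide, rank 2 by width of the 16216 peaks of its list. In DMSO 4 peaks of 610, 302, 361 and 206 bp lay within the same stretch and shared 1479 bases with it. The peak overlaps Runx2os1, an antisense gene listed at 0.522 to 1.07 RPKM in EPZ6438 and 0.696 to 0.805 RPKM in DMSO. It lies from -81377 to -78039 bp relative to the gene's end coordinate. Mouse Runx2 is known to have a second, inner promoter, but the files do not mark it and the peak was not assigned to it.

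At the high-coordinate end of Runx2, peaks of 1632, 717 and 606 bp in EPZ6438 faced peaks of 269, 189 and 393 bp in DMSO at the same places. The last of them covered 135 bases of the printed Runx2 window in EPZ6438 and 111 in DMSO, all of it before the start site, and hence not the pair of Runx cores. A further peak, 411 bp in EPZ6438 and 365 bp in DMSO, lay 52 and 86 bp from the start of Supt3, a gene that begins inside Runx2 on the plus strand. Supt3 RNA had 1.26, 1.13 and 1.41 RPKM in EPZ6438 and 1.37, 1.12 and 1.33 RPKM in DMSO, with arms that overlapped.

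At Sp7 a peak of 1604 bp spanned the end coordinate in EPZ6438, where DMSO had separate peaks of 240 and 360 bp and touched another by 20 bases. Another pair on the far side lay near the start of the neighbouring gene Aaas, 134 bp from it in EPZ6438 and 254 bp in DMSO, and belongs to the window but perhaps not to Sp7. Dlx5 had a wide peak across its end coordinate in both arms, 1765 bp in EPZ6438 and 1041 bp in DMSO, rank 117 of 16216 and rank 145 of 40113 by width. Dlx6 had a single peak of 907 bp in EPZ6438 and 321 bp in DMSO near its start coordinate.

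**Figure D5:**
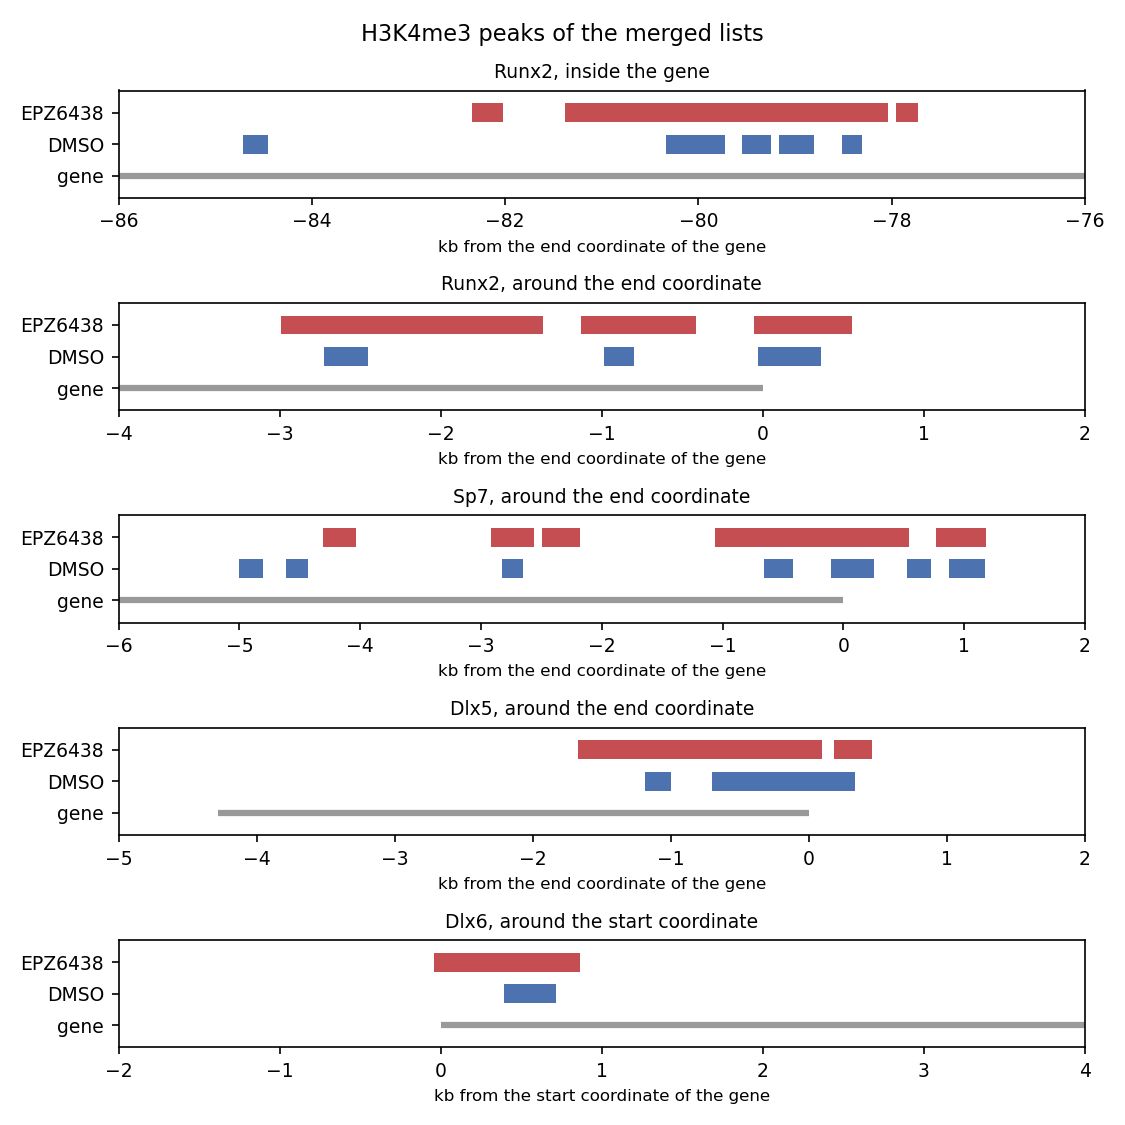
H3K4me3 peaks of the merged lists at Runx2, Sp7, Dlx5 and Dlx6, drawn to scale in kb from a gene end, EPZ6438 (red) above DMSO (blue) and the gene body in grey. The EPZ6438 peak inside Runx2 is 3339 bp wide where DMSO has 4 separate peaks.

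Among the relatives, Dlx4 had no H3K27me3 peak in EPZ6438 and 4 in DMSO (2495 bases), 1 of them shared with the Dlx3 window. Sp6 had no H3K27me3 peak in EPZ6438 and 6 in DMSO (5344 bases), beside 1 H3K4me3 peak of 264 bp in EPZ6438 and 1 of 216 bp in DMSO. Sp6 RNA was 0.0866, 0.0216 and 0.0130 RPKM in EPZ6438 and 0, 0 and 0.0103 RPKM in DMSO, too low to test. Runx3 had no H3K27me3 in either arm and 1486 bases under H3K4me3 in EPZ6438, against 822 in DMSO.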

How the data were processed

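RNA was measured in 6 samples and 2 histone marks by chromatin immunoprecipitation with input controls, grouped by the labels. The authors deposited RPKM per the file headers (per kb of gene length and 1000000 reads in genes), and 4 lists of other values, peak starts and ends from merged samples with no score. Per the submitters' processing notes, build mm10 and the tools STAR 2.6.1c, MACS2, Subread, DiffBind, HOMER, Picard, FastQC and bcl2fastq are named, with no roles. Caller thresholds, annotation and strand setting: not given in the sources used here. Whole reads were recovered from RPKM and gene length for 100% of values (tolerance 0.001), and a floor of 3 reads is 0.118 to 0.160 CPM.

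Genes reaching 10 recovered reads in 3 or more libraries entered the test, made two-sided with limma 3.58.1 in R 4.3.3 (empirical Bayes with trend) on log2(RPKM + 0.1), with no block and p-values adjusted by Benjamini-Hochberg over all of them. This scale understates the change of low genes. Within each arm, libraries differed by more than sampling noise (6.47 to 61.7 chi-square per gene), so none was a copy. The RNA test was checked on simulated data with the same extra spread set for every gene, so that check does not vouch for the calls made here. Peaks were intersected at 1 bp or more with each gene plus 10 kb (Python 3.11.15, pandas 2.3.3, numpy 2.4.6), starts written 1-based. Ratios used numpy 2.4.6 and figures matplotlib 3.10.9.

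The 7 genes and the gene lists were chosen with earlier results of these data known. By rule the text names all 7, up to 4 passing genes per list by adjusted p or else its most abundant gene, and Ezh2. It also names the 2 nearest patterns of 4 members and genes overlapping a member plus 10 kb, of which those too low to test were left out. Other names, among them Vegfa, Bglap2, Bglap3, Spp1, Col1a1, Col1a2, Sox9, Mmp13, Lef1, Atf4, Cbfb, Dlx1, Dlx2, Dlx4, Sp6, Id1 and Bmp2, were chosen after their values were seen, as were the motif searches and the count of genes covered over 2 times as far. Of 154 list entries 153 were found, and the values of 2 of these genes are left out here. The remaining marker lists gave 0 passing genes of 1 tested for fat cells, 0 of 1 for blood and 0 tested for endothelium. Alternatives were other pseudocounts, filters and scalings, voom, the replicate block, omission of each library, other flanks and peaks of at least 400 bp.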

Additional observations from a re-analysis of the deposited data

How the results depend on the processing

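Each of the 7 genes kept the direction of its change under other pseudocounts, filters and scalings, voom and the replicate block, 9 settings in all, and Runx2, Sp7 and Dlx3 passed in each. With 1 library left out the changes ranged from 0.55 to 0.64 for Runx2, 0.58 to 0.95 for Dlx5 and -0.24 to 0.083 for Msx2, which reversed to 0.083 without DMSO replicate 2. Ezh2 ranged from -0.038 to 0.14 and reversed to -0.038 without DMSO replicate 3. Members called as rising then numbered 2 to 4, and of all genes tested 190 (without EPZ6438 replicate 3) to 539 rose and 93 (without DMSO replicate 2) to 464 fell, on fewer samples. The counts moved by over 1.5 times without any EPZ6438 library or DMSO replicate 2. With no filter 355 genes rose and 273 fell, and with at least 1 RPKM in 3 libraries 348 rose, and the cause was not tested. Postn, too, missed the threshold with no filter (adjusted p = 0.0552).

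Same-numbered deviations correlated at 0.410, 0.0781 and 0.0561, so pairing of the samples by replicate number was neither shown nor excluded. EPZ6438 replicate 2 correlated best with DMSO replicate 3 (0.331) and not with its own number. With the replicate block, 559 genes rose and 492 fell, and the Dlx5 change of 0.74 passed (adjusted p = 0.0157). Among the genes named, Twist2 missed the threshold with the block (0.0575). The planned edgeR and DESeq2 fits were not run, because the values are RPKM.

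Flanks set the H3K27me3 counts. With no flank, or 1 kb around gene ends, 0 members had a DMSO peak and 0 were covered less than 0.5 times as far, with 5 kb 1 and 1, and with 20 kb 5 and 5, when 1 member (Msx1) also had an EPZ6438 peak and 1 (Dlx5) had both marks overlapping in DMSO. With peaks of at least 400 bp, 2 members had an H3K4me3 peak in DMSO. The shares over all genes were computed for 10 kb and peaks of any width alone. The counts under these other settings thus show how the setting acts and are no result about the members. Low genes such as Dlx3 rest on few reads, and reads without molecular identifiers make such floors cover counting error only.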
